A study of Mus musculus with 2 samples.

Results

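Granulocytes of Lewis lung carcinoma (LLC) tumors were examined in the single-cell RNA libraries of the study, 1 library of C57BL/6 mice per condition. The sGC Ctr library came from Gucy1b1 flox/flox mice and the sGC dPC library (pericyte deletion, the "delta PC" of the study) from mice labelled Cspg4-CreERT2::Gucyc1b1 flox/flox, so that the floxed allele was common to both. Animals of both genotypes received 5 doses of tamoxifen when 4 weeks old and LLC cells, a mouse lung carcinoma line, under the skin when 8 weeks old, and the tumors were taken 2 weeks later. Cells of 3 tumors were pooled for each library. The Cre is driven by Cspg4, a gene of pericytes, and deletes the beta1 subunit of soluble guanylyl cyclase (sGC, the receptor of nitric oxide) in pericytes, so a difference in granulocytes would be measured in cells that the Cre was not designed to target.

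The granulocytes were chosen by their measured levels. A barcode was counted as one when it held at least 1000 UMIs (unique molecular identifiers, each standing for one captured RNA molecule) with under 10% of them mitochondrial, at least 5000 CPM (UMIs of a gene scaled to the same total in every cell or sum) of S100a8 and S100a9 together, at least 1 UMI of Csf3r, Cxcr2 or G0s2, at most 2 UMIs of the macrophage genes C1qa, C1qb and C1qc, and at most 2 UMIs of the cancer-cell genes Rhox5, Krt8, Krt18 and Hmga2. The rule found 619 granulocytes among 40638 barcodes. Of these 321 lay among the 15007 barcodes of sGC Ctr and 298 among the 25631 of sGC dPC. They made up 2.61% (95% binomial interval 2.34 to 2.91) of the 12281 barcodes that passed the limits on UMIs and mitochondrial RNA in sGC Ctr, and 1.41% (1.26 to 1.58) of 21082 in sGC dPC. Across the libraries 131 barcode sequences were shared, 0 of them granulocytes in both and 3 granulocytes in one. Doublets were not removed: the caller marked 715 barcodes of sGC Ctr, 0 of them granulocytes, and 0 of the 25631 of sGC dPC, where it did not work. The shares of granulocytes rest on the UMI limit and on libraries of unequal depth, with medians of 23337 and 8019 UMIs over all barcodes, and are therefore given without a comparison.

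Granulocytes, most of them neutrophils, are short-lived phagocytes made in the bone marrow. They carry antimicrobial proteins in granules that are filled in order during maturation, kill microbes with the oxidants of the NADPH oxidase, and follow chemokines such as CXCL2 through the receptor CXCR2. In tumors they are known to release cytokines, proteases and angiogenic factors, and subsets with hypoxia-response, interferon-response or chemokine transcripts have been described.

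The granulocytes held 715113 UMIs in sGC Ctr and 749305 in sGC dPC. A cell held 1004 to 8246 UMIs in sGC Ctr (median 2071) and 1013 to 27891 in sGC dPC (median 2367.5), and the median cell held 848 and 961 genes. After every cell had been thinned to 1000 UMIs the medians were 513 and 518 genes, so the libraries differed little in genes per cell at equal depth. Mitochondrial RNA took 2.28% of the UMIs of the median cell in sGC Ctr and 2.93% in sGC dPC. With 1 library of pooled tumors per condition, genotype, library and tumor cannot be told apart, the spread from tumor to tumor is hidden in the pool, and the conditions were not tested against each other. All intervals below are at 95% and cover counting error only. In a pool of cells, a lower level can mean fewer cells of a kind or less RNA per cell, and these were separated below only as far as the clusters allow.

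The genes that chose the cells are described first. S100a8 and S100a9, the subunits of calprotectin, stood at 24529 and 47555 CPM in sGC Ctr and at 19531 and 34553 CPM in sGC dPC. G0s2, an inhibitor of lipolysis, was at 4630 and 2859 CPM, Csf3r, the receptor of granulocyte colony-stimulating factor, at 885 and 770 CPM, and Cxcr2 at 653 and 436 CPM. All 5 were lower in sGC dPC, by a log2 ratio of -0.20 for Csf3r to -0.70 for G0s2, and nothing is read from this since the rule used them. The summed S100a8 and S100a9 level of a cell ran from 5431 to 270615 CPM in sGC Ctr (median 57194) and from 5009 to 253070 CPM in sGC dPC (median 41152). In sGC Ctr 11 members lay between 5000 and 7000 CPM, and in sGC dPC 9 did. Of the barcodes that met all other limits of the rule, 21 and 23 lay between 3000 and 5000 CPM. The nearest of these to the limit held 4986 and 4946 CPM. The level was at least 20000 CPM in 252 and 219 of the cells.

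**Figure D1:**
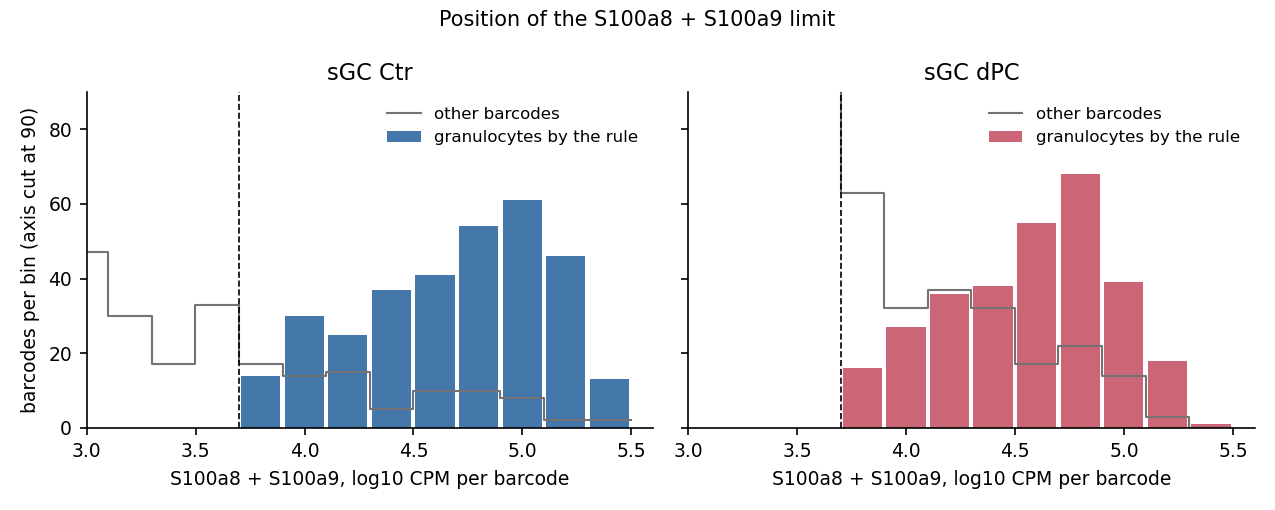
Number of barcodes (vertical axis, limited to 90) by summed S100a8 and S100a9 level in log10 CPM (horizontal axis) for sGC Ctr (left) and sGC dPC (right), in bins of equal width. Bars are the 321 and 298 granulocytes, the grey line the other barcodes that passed the limits on UMIs and mitochondrial RNA, and the dashed line the limit of 5000 CPM, below which no granulocyte lies. Left of it the grey line of sGC dPC runs above the plotted range.

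The identity of the cells was checked with genes that the rule did not use, although most of them are known to be expressed along with those it did. The cells were compared with 4548 macrophages (at least 1000 CPM and 3 UMIs of the C1q genes) and 979 monocytes (at least 3 UMIs of Ly6c2 and Plac8) of the same libraries. Genes were tested when they held at least 100 UMIs in the granulocytes, so genes low in these cells were left out. Of 1691 such genes, 437 (25.8%) were at least 2-fold higher in granulocytes than in macrophages and monocytes together in both libraries. Of the 22 genes of the granulocyte identity list that could be tested, 19 passed the same limit. Retnlg, a resistin-like protein of neutrophils, was at 2928 and 1620 CPM in granulocytes, at 1.01 and 2.47 CPM in macrophages and at 1.35 and 2.53 CPM in monocytes. Hdc, which makes histamine, stood at 1749 and 1524 CPM against 1.55 and 3.68 CPM in macrophages. Hcar2, the receptor of nicotinic acid and hydroxybutyrate, stood at 2219 and 2214 CPM against 29.2 and 48.6 CPM in monocytes. Il1f9, a cytokine of the IL-1 family now called IL-36 gamma, stood at 397 and 332 CPM against 0.32 and 0.52 CPM. Others among the 15 genes that stood out most over both myeloid classes were Stfa2l1 and Cstdc4 (stefins, inhibitors of cysteine proteases), Wfdc21, Asprv1, Rdh12, Mrgpra2b, Chil1, Lcn2 and the noncoding Mirt1, Mirt2 and Gm20406.

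Markers of other granulocytes and lymphocytes were near absent. The 7 eosinophil genes held 2 and 2 UMIs in all (Ear2 the most abundant, Prg2, Il5ra, Ccr3, Epx, Ear1 and Ear6 at 0), and the 7 mast cell and basophil genes 7 and 11 UMIs (Kit the most abundant, Mcpt8, Prss34 and Ms4a2 at 0). T cell genes held 1 and 4 UMIs (Trbc2 the most abundant, Cd4, Cd8a and Lat at 0), natural killer genes 2 and 9 (Klrd1 the most abundant, Ncr1, Klrb1c, Nkg7 and Gzma at 0), B cell and plasma cell genes 18 and 20 (Ighm the most abundant, Cd79b and Jchain among those at 0) and platelet genes 1 and 2 (Itga2b the most abundant, Gp9, Gp1bb and Tubb1 at 0). The defining markers of eosinophils, basophils and mast cells were thus at or near 0.

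RNA of the tumor's other cells was present at low level. The 13 macrophage genes outside the rule summed to 969 CPM in sGC Ctr and 1196 CPM in sGC dPC (Ctsl the most abundant), the 8 fibroblast and mural genes to 682 and 1033 CPM (Col3a1 the most abundant), the 8 monocyte genes to 961 and 954 CPM (Fn1 the most abundant), the 6 endothelial genes to 30.8 and 50.7 CPM (Pecam1 the most abundant) and 12 further cancer-cell genes to 798 and 868 CPM (Cd24a the most abundant, Krt7 at 0). Cd24a, at 326 and 266 CPM in granulocytes, was at 1.86 and 2.98 CPM in the other barcodes and therefore did not mark cancer cells here. In CPM, the widest gaps between the libraries were those of 2 lists. The 11 dendritic cell and MHC class II genes summed to 385 and 1600 CPM (Cd74 the most abundant), and the 6 erythroid genes to 937 and 13.3 CPM (Hbb-bs the most abundant), although erythrocytes had been lysed during preparation. The part of these transcripts in the differences below was not tested beyond the values given for single cells and clusters.

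Gucy1b1 (GRCm38, chr3:82032006-82074689, minus strand), the targeted gene, was not found in granulocytes. It held 0 UMIs in 321 and 0 in 298 cells, which allows a share of cells with a UMI of up to 0.935% and 1.01% (3 counts of the total). Over all barcodes of the libraries it held 80 UMIs in sGC Ctr and 42 in sGC dPC, or 0.164 CPM (0.130 to 0.204) and 0.0963 CPM (0.0694 to 0.130). Gucy1a1, which encodes the alpha1 subunit and was not floxed, stood over all barcodes at 0.363 CPM (0.311 to 0.420) and 0.291 (0.243 to 0.346), intervals that overlapped, and Cspg4 was lower in sGC dPC at 4.77 CPM (4.58 to 4.97) and 3.15 (2.99 to 3.32). Whether the counted 3' end lies inside the deleted part was not tested. Of the 10 genes of nitric oxide and cGMP signaling 2 reached 50 UMIs in granulocytes, and they differed in direction. Nos2, which makes nitric oxide, was at 29.4 CPM (18.2 to 44.9) and 72.1 (54.1 to 94.0), and Vasp, a cytoskeletal protein phosphorylated by the cGMP-dependent kinase, at 273 (236 to 314) and 198 (167 to 232).

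Between the libraries the granulocytes were alike for most genes. Among the 3105 genes whose summed UMIs reached 50, 50 (1.61%) were at least 2-fold higher in sGC dPC and 46 (1.48%) at least 2-fold lower. The median log2 ratio was -0.00361, the quartiles were -0.26 and 0.27, and 49.7% lay above 0. Calls past 2-fold, list medians and every ratio without a cell or in a subset of the cells use a pseudocount of 0.5 UMIs, while ratios printed with an interval use none.

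The most abundant messages lay on both sides of 0, several of them close to it. Cxcl2, the ligand of CXCR2 (chr5:90903871-90905938, plus strand), stood at 27042 CPM (interval 26662 to 27426) in sGC Ctr and 25924 (25561 to 26291) in sGC dPC, a log2 ratio of -0.06. Fth1, the ferritin heavy chain, was at 34106 and 31802 CPM, and Malat1, a nuclear noncoding RNA, at 43004 and 42062 CPM. Ccl3, a chemokine of the MIP-1 family, was at 4040 and 3662 CPM and H3f3b, a histone, at 4185 and 4416 CPM. The log2 ratios of these genes ran from -0.14 for Ccl3 to 0.08 for H3f3b. The widest among the 15 most abundant genes outside the rule and the mitochondrial genome were those of Gm42418 (0.98), Ifitm1 (-0.69) and Il1b (-0.66), followed by Ftl1, the ferritin light chain (-0.36), Tmsb4x, an actin-binding thymosin (-0.33), and Srgn (-0.28), all 6 outside the quartiles of all genes. Gm42418 (chr17:39846958-39848788, plus strand), a locus that overlaps ribosomal RNA sequence, was at 30246 and 59711 CPM, and it was higher in sGC dPC in macrophages (14886 and 39340 CPM), monocytes (14878 and 32791 CPM) and all other barcodes (4715 and 14880 CPM) as well. Lars2, a mitochondrial leucyl-tRNA synthetase whose locus holds a similar sequence, followed it with 933 and 2018 CPM in granulocytes and 533 and 1318 CPM in macrophages.

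**Figure D2:**
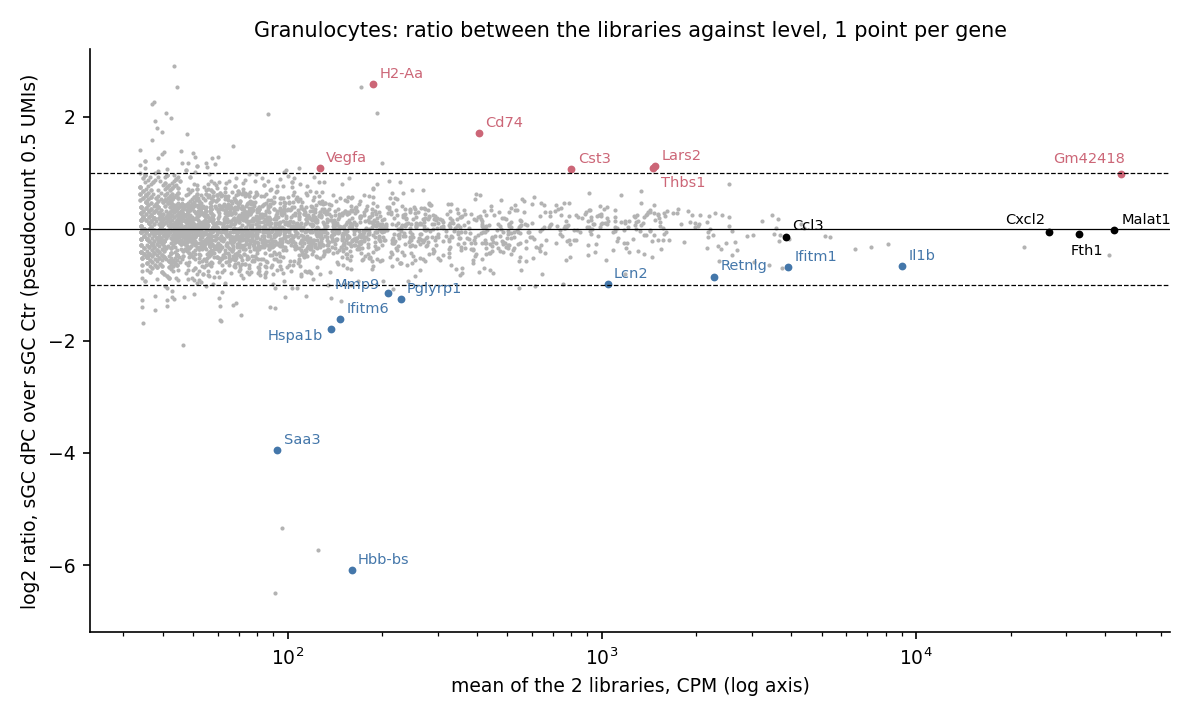
Log2 ratio of sGC dPC to sGC Ctr in granulocytes (vertical axis) against the mean level of both libraries in CPM (horizontal, log axis) for the genes with at least 50 UMIs outside mitochondrial genes, 1 point per gene. Dashed lines mark 2-fold; most points lie between them, Cxcl2, Ccl3, Fth1 and Malat1 lie near 0, and the erythroid Hbb-bs and the MHC class II gene H2-Aa mark the far ends.

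Granule and identity genes were lower in sGC dPC as a group. Of the 25 genes of the granulocyte identity list with at least 50 UMIs, 0 had a log2 ratio above 0, against 49.7% of all genes, their median was -0.37, and 2 were at least 2-fold lower against 1.48% of all genes. The list was chosen with earlier results of these data known and its genes are expressed in the same cells, so the count is a description. It shares genes with the granule lists below, among them Lcn2, Retnlg, Mmp8 and Ly6g, so these lists are not separate observations. Retnlg (chr16:48872621-48874496, plus strand) was at 2928 CPM in sGC Ctr (interval 2804 to 3056) against 1620 in sGC dPC (1530 to 1714), which gave a log2 ratio of -0.85 (-0.96 to -0.75). Wfdc17, a whey acidic protein with antimicrobial activity, was at 4148 and 2664 CPM (a ratio of -0.64 that was -0.033 in cells with no UMI of the C1q and cancer-cell genes), and Slpi, an inhibitor of neutrophil elastase, at 3002 and 2174 CPM. Srgn, the core protein of the granule proteoglycan serglycin, was at 8896 and 7348 CPM. The ratio closest to 0 was that of Itgam, the integrin CD11b, at 310 and 291 CPM, and the widest among the members described here was that of Mmp9, given with the tertiary granules.

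Genes of the secondary granules, which are filled at the myelocyte stage, stood lowest among the function lists. Of 12 genes on the list 4 reached 50 UMIs, all 4 had ratios below 0, where 49.7% of all genes lay above it, 2 were at least 2-fold lower, against 1.48% of all genes, and the median log2 ratio was -1.0. Pglyrp1, a peptidoglycan recognition protein, was at 323 CPM (283 to 367) in sGC Ctr and 135 (110 to 164) in sGC dPC, a log2 ratio of -1.26 (-1.61 to -0.92). Hp, haptoglobin, was at 818 CPM (753 to 887) and 404 (360 to 453), a ratio of -1.02 (-1.22 to -0.81). Lcn2, lipocalin 2, which binds bacterial siderophores, was at 1387 CPM (1302 to 1476) and 699 (641 to 762), a ratio of -0.99 (-1.14 to -0.83). The counting intervals of the libraries did not overlap for Pglyrp1, Hp and Lcn2. The remaining gene of the 4, Lyz2, was the most abundant of the list. Its ratio of -0.38 ran from -0.69 to 0.65 over all alternatives, so its direction was not stable. The list summed to 17979 and 16491 CPM in macrophages, against 3882 and 2243 CPM in granulocytes. Among members under 50 UMIs, Olfm4 had a ratio of 1.24 and Cybb one of -1.09. In monocytes Hp was at 240 and 203 CPM, and Pglyrp1 at 25.1 and 30.3 CPM, against log2 ratios past -1 for both in granulocytes. Of the tertiary granule and maturation list 9 of 12 genes reached 50 UMIs, 8 had ratios below 0 and the median was -0.46. Mmp9, the gelatinase of these granules, was at 288 CPM (250 to 330) and 129 (105 to 158), intervals that did not overlap. Of the primary granule and precursor list 3 of 10 genes reached 50 UMIs. They were the granule membrane protein Cd63 (324 and 350 CPM) and the proliferation genes Top2a (82.5 and 113 CPM) and Mki67 (29.4 and 50.7 CPM), each with overlapping intervals. The defining genes of primary granules, Elane, Mpo, Ctsg, Ms4a3 and Fcnb, were at 0 UMIs, so the list gives no value for primary granules.

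Subunits of the NADPH oxidase lay lower as well. All 6 genes of the list of 7 that reached 50 UMIs had ratios below 0, where 49.7% of all genes lay above it. Their median was -0.60, and 0 were at least 2-fold lower, against 1.48% of all genes. In cluster 3 the median of the 4 genes with enough UMIs was -0.12. Cyba, the p22 subunit, was at 569 CPM (515 to 627) and 330 (290 to 373), and Rac2, the small GTPase of the neutrophil enzyme, at 330 and 198 CPM. Cyba was at 1759 and 1481 CPM in macrophages and 1193 and 1154 CPM in monocytes. Of 24 genes for pattern recognition and Fc receptors, 6 had ratios above 0, against 49.7% of all genes, and the median was -0.32. At least 2-fold higher was 1 of them, against 1.61% of all genes, and at least 2-fold lower were 2, against 1.48%. Tyrobp, the adaptor DAP12, was at 2825 and 1894 CPM, and Trem3, a receptor that signals through it, at 137 and 58.7 CPM.

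**Figure D3:**
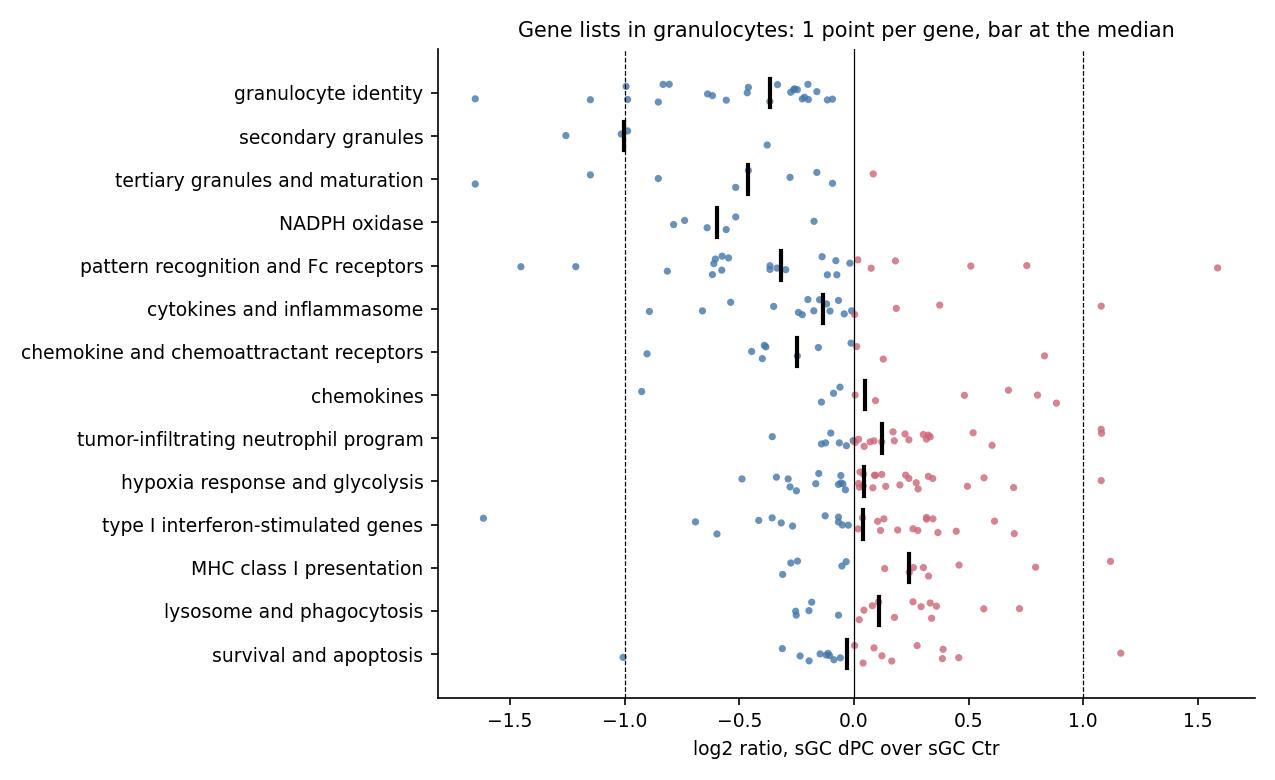
Log2 ratio of sGC dPC to sGC Ctr in granulocytes (horizontal axis) for the genes of 14 lists with at least 50 UMIs, 1 point per gene, with a bar at the median of each list and dashed lines at 2-fold. The granulocyte identity, secondary granule and NADPH oxidase genes all lie left of 0, while the hypoxia, type I interferon and chemokine lists lie on both sides of it. Some genes belong to several lists.

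The 5' flanks of genes from both behaviours are shown so that their letters can be read beside the levels: Retnlg, Slpi and Pglyrp1, which were lower in sGC dPC, and the chemokines Cxcl2, which was level, and Cxcl3, which was higher. Each is the 250 bases before the start given by RefSeq (GRCm38.p6), 5' to 3' on the gene's strand. Capitals mark matches on either strand to TTGCNNAA, the letters of a C/EBP site (opposite strand TTNNGCAA), and to GGNNTTTCC, letters like those of an NF-kB site (opposite strand GGAAANNCC).
Retnlg (chr16:48872358-48872607, plus strand): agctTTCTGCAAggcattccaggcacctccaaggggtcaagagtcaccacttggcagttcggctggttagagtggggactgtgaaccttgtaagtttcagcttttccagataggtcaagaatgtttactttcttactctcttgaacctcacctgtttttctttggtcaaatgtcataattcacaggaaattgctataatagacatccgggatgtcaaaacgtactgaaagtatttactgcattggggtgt
Slpi (chr2:164356508-164356757, minus strand): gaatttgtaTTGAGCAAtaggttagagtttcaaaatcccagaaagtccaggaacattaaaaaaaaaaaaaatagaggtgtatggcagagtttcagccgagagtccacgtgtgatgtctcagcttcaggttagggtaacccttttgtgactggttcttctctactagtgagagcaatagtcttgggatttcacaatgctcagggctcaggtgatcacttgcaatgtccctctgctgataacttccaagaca
Pglyrp1 (chr7:18884440-18884689, plus strand): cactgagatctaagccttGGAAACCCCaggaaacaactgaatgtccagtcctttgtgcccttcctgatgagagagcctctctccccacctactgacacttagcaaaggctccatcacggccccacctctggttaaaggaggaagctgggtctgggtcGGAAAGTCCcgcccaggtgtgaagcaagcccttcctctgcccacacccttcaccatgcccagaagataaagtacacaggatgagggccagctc
Cxcl2 (chr5:90903649-90903898, plus strand): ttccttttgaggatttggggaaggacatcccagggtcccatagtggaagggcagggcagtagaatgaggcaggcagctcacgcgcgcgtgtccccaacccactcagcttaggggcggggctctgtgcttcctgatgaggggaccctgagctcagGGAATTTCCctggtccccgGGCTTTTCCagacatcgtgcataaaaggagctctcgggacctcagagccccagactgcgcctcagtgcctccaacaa
Cxcl3 (chr5:90785851-90786100, plus strand): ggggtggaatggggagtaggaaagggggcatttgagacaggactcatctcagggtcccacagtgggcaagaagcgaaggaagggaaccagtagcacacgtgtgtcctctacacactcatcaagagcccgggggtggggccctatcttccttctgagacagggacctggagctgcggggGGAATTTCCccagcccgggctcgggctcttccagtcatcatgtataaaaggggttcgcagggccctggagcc

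The capitals in Retnlg and Slpi are the C/EBP letters, 246 and 241 bases before the start, and those in the other sequences are the NF-kB-like letters. They lie 232 and 93 bases before the start in Pglyrp1, 96 and 77 in Cxcl2 and 72 in Cxcl3. Over all 32851 RefSeq promoters of the same length 9.56% held the C/EBP letters and 4.93% the NF-kB-like letters. Of the 26 promoters found for 23 of the 30 granulocyte identity genes, 8 (30.8%) held the C/EBP letters and 1 (3.85%) the NF-kB-like letters. Of the 10 promoters found for 10 of the 16 chemokine genes, 0 held the former and 6 (60.0%) the latter. A match describes the letters alone, not binding in these cells.

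Cytokine messages differed gene by gene. Of the 18 genes of the cytokine and inflammasome list that reached 50 UMIs, 4 had ratios above 0, against 49.7% of all genes. The median was -0.13. Il1b (chr2:129364570-129371139, minus strand), the main secreted IL-1 of neutrophils, was at 11078 CPM (10835 to 11325) in sGC Ctr and 7006 (6818 to 7199) in sGC dPC, a log2 ratio of -0.66 (-0.71 to -0.61). Il1rn, the antagonist of the same receptor, was at 1116 and 1084 CPM, and Nlrp3, an inflammasome sensor, at 645 and 646 CPM. Within clusters Il1rn was at 663 and 501 CPM in cluster 1, 1700 and 1302 CPM in cluster 3 and 1498 and 1471 CPM in cluster 2. In monocytes Il1b was at 1623 and 1603 CPM and in macrophages at 240 and 377 CPM, where sGC dPC was level or higher, and this difference between classes was not tested.

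Chemokines lay on both sides of 0. Of 10 genes that reached 50 UMIs, 6 had ratios above 0 and the median was 0.05. Cxcl3, a further ligand of CXCR2, was at 1025 CPM (952 to 1102) and 1636 (1546 to 1730), a log2 ratio of 0.67 (0.54 to 0.81). Inside clusters it was at 177 and 525 CPM in cluster 1, 1836 and 2162 in cluster 2 and 1350 and 3386 in cluster 4, but at 2185 and 2119 in cluster 3 and 357 and 17.5 in cluster 5, the last from 16 UMIs and 1. Ccl4 was at 3581 and 3594 CPM and Ccl6 at 1309 and 1397 CPM. The lowest ratio was that of Cxcl10, an interferon-induced chemokine, at 264 and 139 CPM, and one sGC Ctr cell held 85 of its 189 UMIs. Its ratio of -0.93 was 1.49 in the cells with no UMI of the C1q and cancer-cell genes. Receptors lay slightly lower: of 11 genes 3 had ratios above 0 and the median was -0.25. That median ran from -0.58 to 0.11 over all alternatives, so its direction was not stable. Ccr1, a receptor of Ccl3, was at 937 and 929 CPM and Ccrl2, a receptor that holds chemerin, at 1481 and 1122 CPM.

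Thbs1 stood out among the genes that were higher in sGC dPC. Thrombospondin 1 (chr2:118111876-118127133, plus strand), an extracellular protein that inhibits angiogenesis and activates latent TGF-beta, was at 934 CPM (865 to 1008) in sGC Ctr and 1976 (1877 to 2080) in sGC dPC, a log2 ratio of 1.08 (0.95 to 1.22). No cell held more than 30 of its 668 UMIs in sGC Ctr or more than 42 of its 1481 in sGC dPC, so it rested on many cells. It was higher in sGC dPC in macrophages (118 and 257 CPM), monocytes (1447 and 2147 CPM) and all other barcodes (37.9 and 75.2 CPM) too, and was not particular to granulocytes. Vegfa (chr17:46016993-46032369, minus strand), which promotes angiogenesis, was at 81.1 CPM (61.6 to 105) and 172 (144 to 205), a ratio of 1.09 (0.63 to 1.56). It stood at 60.7 and 98.5 CPM in macrophages and 160 and 224 CPM in monocytes. With every cell thinned to 1000 UMIs the ratio of Vegfa was 0.68, under 2-fold.

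**Figure D4:**
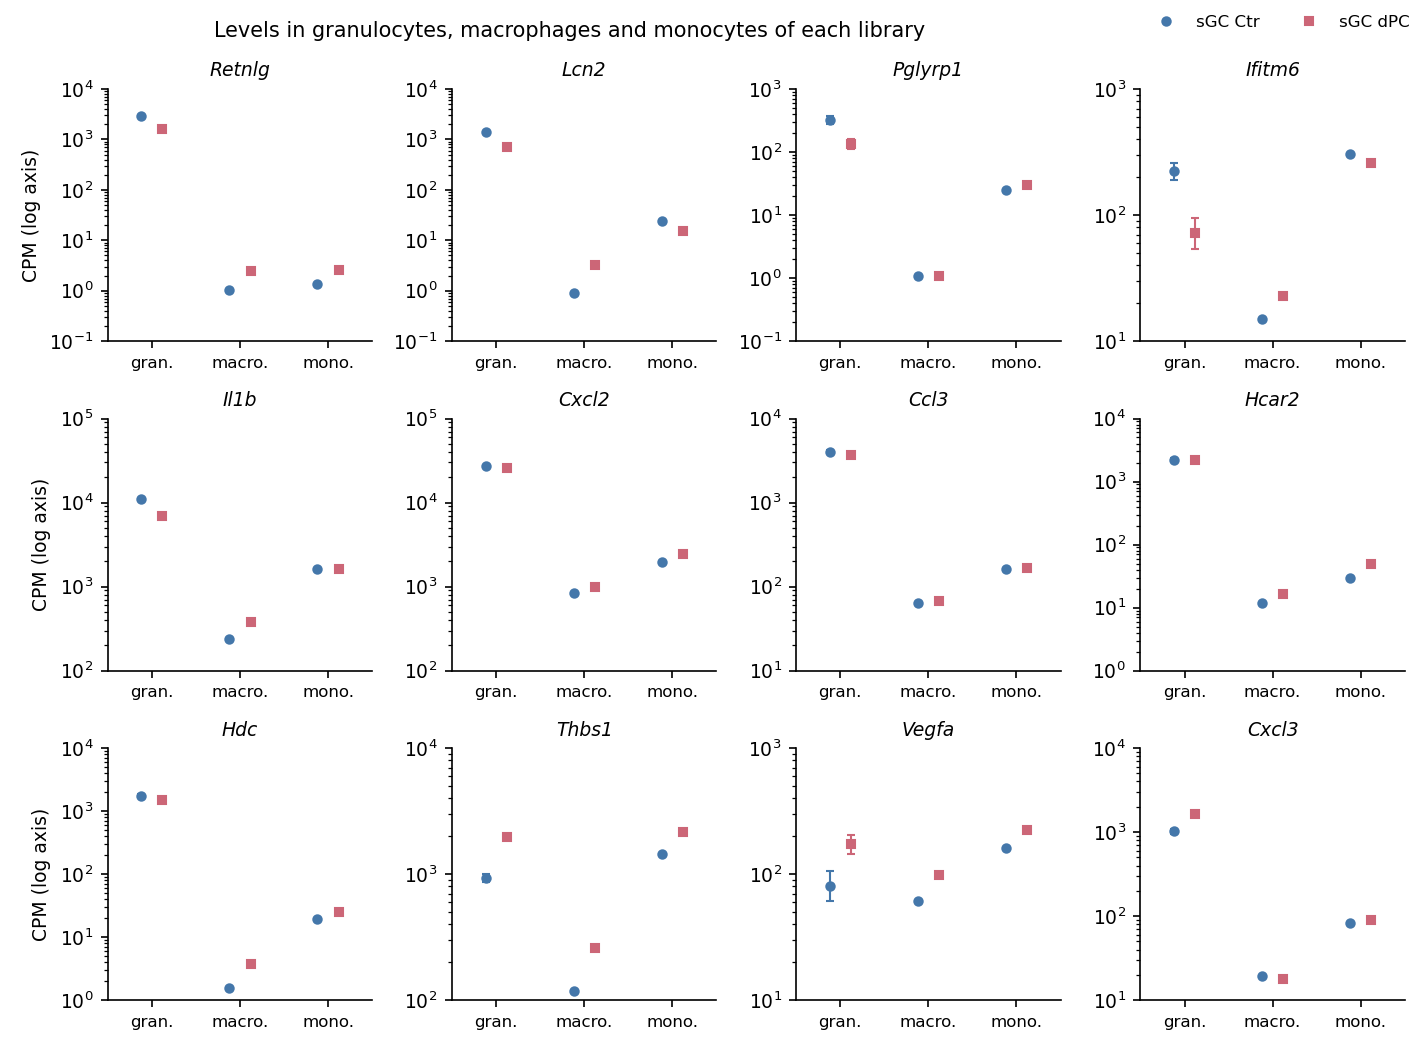
Level in CPM (vertical log axes, a scale of its own in each panel) of 12 genes in granulocytes, macrophages and monocytes of sGC Ctr (blue circles) and sGC dPC (red squares). Bars on the granulocyte points are 95% Poisson intervals; Retnlg, Lcn2 and Hdc lie far above both other classes, and Thbs1 lies higher in sGC dPC in all 3.

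Of 28 transcripts known from tumor neutrophils 25 reached 50 UMIs. Of these 18 had ratios above 0, against 49.7% of all genes, 2 (Thbs1 and Vegfa) were at least 2-fold higher, against 1.61% of all genes, and the median was 0.12. The direction depended on the measure, since the summed level of the list was 63268 and 61696 CPM and the median was -0.14 in cluster 2 and -0.16 in cluster 3. Ptgs2, which makes prostaglandins, was at 1631 and 1560 CPM, and Hcar2 at 2219 and 2214 CPM. Of the 33 hypoxia and glycolysis genes 21 had ratios above 0 with a median of 0.04, which was -0.22 in cluster 2, where the summed level was 20830 and 17870 CPM. Hilpda, a lipid droplet protein induced by low oxygen, was at 895 and 1057 CPM, Ldha, lactate dehydrogenase, at 1008 and 1068 CPM, and Gapdh at 2628 and 2561 CPM.

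Interferon genes lay on both sides of 0. Of 27 type I interferon-stimulated genes 15 had ratios above 0 and the median was 0.04. Their summed level was lower in sGC dPC, at 14187 and 10889 CPM, a drop that lay in the 4 IFITM genes given next and not in the rest of the list. The median of the genes with enough UMIs was -0.56 in cells with no UMI of the C1q and cancer-cell genes. It was -0.17, -0.51 and -0.21 in clusters 1 to 3. The lowest ratios were those of 4 membrane proteins of the IFITM family, grouped here after their values were seen: Ifitm1 was at 4841 and 2997 CPM, Ifitm2 at 3664 and 2421 CPM, Ifitm3 at 1396 and 1046 CPM, and Ifitm6 (chr7:141015699-141017924, minus strand) at 222 CPM (189 to 260) and 72.1 (54.1 to 94.0), a log2 ratio of -1.63 (-2.10 to -1.17). Isg15, a ubiquitin-like modifier, was at 864 and 946 CPM and Rsad2, the antiviral viperin, at 599 and 578 CPM. Ifitm6 was at 306 and 258 CPM in monocytes, and Ifitm1 was at 1172 and 1581 CPM there. Of 13 genes of MHC class I presentation 8 had ratios above 0 with a median of 0.24. The direction of that median was not stable, since it was -0.083 with every cell thinned to 1000 UMIs and -0.049 without the cell with the most UMIs of each gene, where the proteasome subunit Psmb8 went from 0.30 to -0.88. B2m, the light chain, was at 1053 and 1156 CPM.

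Several of the largest ratios drew most of their UMIs from a few cells. The MHC class II genes H2-Aa (53.1 and 322 CPM), H2-Eb1 (50.3 and 292 CPM), H2-Ab1 (74.1 and 312 CPM) and the invariant chain Cd74 (190 and 623 CPM) had log2 ratios of 2.58, 2.52, 2.06 and 1.71. One sGC dPC cell held 136 of 241, 141 of 219, 166 of 234 and 295 of 467 of their UMIs. Without the cell with the most UMIs of the gene in each library the ratios were 1.87, 1.94, 1.90 and 1.20. Not all of them held past 2-fold: with at least 20000 CPM of S100a8 and S100a9 the ratio of Cd74 was 0.087 and that of H2-Eb1 0.79, with no UMI of the C1q and cancer-cell genes that of H2-Ab1 was -0.16, and without cluster 5 that of Cd74 was 0.77. Of the 1199 UMIs that the dendritic cell and MHC class II list held in sGC dPC, 954 lay in the 9 cells of cluster 5. Cst3, cystatin C, was at 519 and 1081 CPM with 585 of 810 UMIs in one cell, and its ratio of 1.06 became -0.70 without that cell. The globins Hbb-bs, Hbb-bt, Hba-a1 and Hba-a2 were at 316, 180, 246 and 187 CPM in sGC Ctr and at 1.33 to 4.00 CPM in sGC dPC, with 210 of the 226 UMIs of Hbb-bs in one sGC Ctr cell.

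Some other genes at the far ends kept a ratio past 2-fold without the cell that held most of their UMIs, and Crip1 did not. Saa3 (chr7:46711998-46715700, minus strand), an acute-phase apolipoprotein, held 125 UMIs in sGC Ctr, at most 39 of them in one cell, and 8 in sGC dPC, which is 175 CPM (145 to 208) and 10.7 (4.61 to 21.0), and its log2 ratio of -3.95 was -3.60 without the cell with the most. These UMIs lay in few cells, 2.18% of sGC Ctr and 2.68% of sGC dPC granulocytes. In monocytes it was at 626 and 181 CPM, and in macrophages at 6.99 and 22.5 CPM. Hspa1b, a heat shock protein, was at 214 and 61.4 CPM, Trf, transferrin, at 133 and 49.4 CPM, Chil1, a chitinase-like protein of neutrophil granules, at 127 and 48.0 CPM, and Pilra, an inhibitory receptor, at 210 and 85.4 CPM. Gngt2, a G protein subunit, was at 106 and 36.0 CPM. Higher in sGC dPC were Crip1 (122 and 276 CPM, a log2 ratio of 1.18 that was 0.85 without the cell with 61 of its 207 UMIs), Lhfpl4 (69.9 and 148 CPM, a ratio of 1.08 that was -0.68 with no UMI of the C1q and cancer-cell genes) and Lum, a fibroblast proteoglycan (64.3 and 133 CPM). All 5 fibroblast and mural genes with at least 50 UMIs had ratios above 0, against 49.7% of all genes. Their median was 1.04, and 3 were at least 2-fold higher, against 1.61% of all genes. Whether this RNA came from the granulocytes themselves was not tested.

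The granulocytes were divided into 5 clusters without the genes of the rule to see how they vary. The clusters serve as a description, and their sizes are given as denominators only, since the genes that differ between the libraries took part in the clustering. Cluster 1 (161 cells of sGC Ctr and 83 of sGC dPC) held the highest levels of Mmp9 (529 and 318 CPM), Pglyrp1 (605 and 294 CPM) and Cxcr2 (969 and 810 CPM), with Cd300lb, Nlrp12 and Lrg1 among its leading genes after the globins of 1 cell. The genes named for a cluster alone (Cd300lb, Nlrp12, Lrg1, Cstb, Il23a, Il1a and Ifit1) were chosen after their values were seen. Cluster 2 (70 and 125 cells) held the highest Cstb (1748 and 1221 CPM), with Hilpda at 2187 and 1840 CPM and Cd274, the ligand of PD-1, at 742 and 777 CPM, both below their levels in cluster 4 (2379 and 1940 CPM, and 879 and 1282 CPM), and little Mmp9 (40.5 and 39.4 CPM). Cluster 3 (62 and 56 cells) was led by Saa3, whose UMIs lay in few granulocytes as given above, and by Il23a and Il1a. This cluster had the highest Cxcl2 (48234 and 40484 CPM), with Il1b at 15615 and 9889 CPM. Cluster 4 (20 and 25 cells) was led by interferon-stimulated genes, with Ifit1 at 1157 and 1348 CPM against at most 45.8 CPM in clusters 1 to 3. Cluster 5 (8 and 9 cells) was led by H2-Ab1, Ccr2, Plac8 and Cst3, genes of monocytes and dendritic cells, and its S100a9 level (9270 and 9824 CPM) was the lowest.

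**Figure D5:**
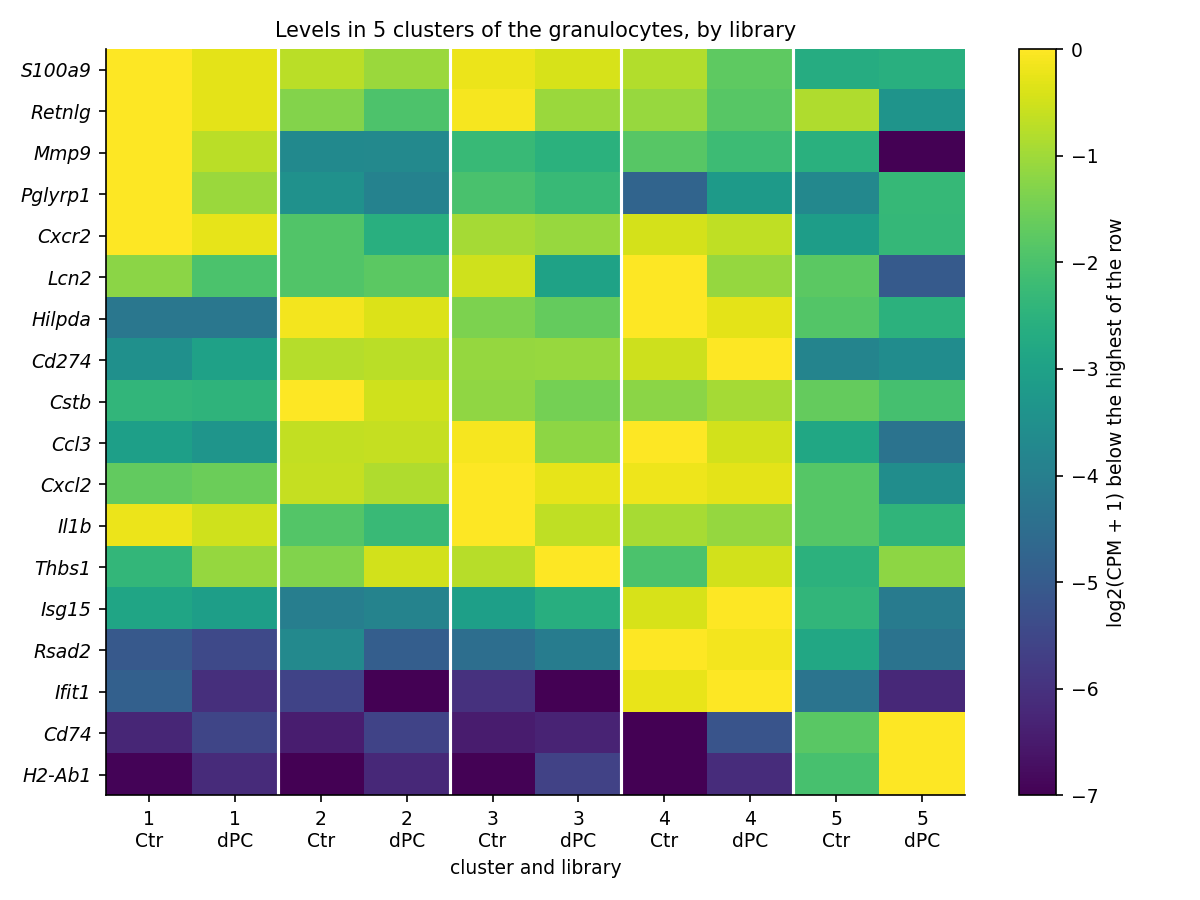
Level of 18 genes (rows) in the 5 clusters of the granulocytes in each library (columns), as log2(CPM + 1) below the highest value of the row, with all values at or under -7 in the darkest colour. Mmp9, Pglyrp1 and Cxcr2 are highest in cluster 1, Ifit1 and Rsad2 in cluster 4 and Cd74 in cluster 5, and Thbs1 is higher in the sGC dPC column of every cluster.

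The difference in Thbs1 was seen inside the clusters. It was at 569 and 1349 CPM in cluster 1, 1154 and 2080 in cluster 2, 1713 and 2909 in cluster 3, 729 and 2088 in cluster 4 and 513 and 1276 in cluster 5, each time higher in sGC dPC. Il1b was lower in sGC dPC in all 5 (13424 and 11064 CPM in cluster 1, 4273 and 3279 in cluster 2), and so was Retnlg (3650 and 2978 CPM in cluster 1, 1492 and 934 in cluster 2, 3427 and 1745 in cluster 3). The intervals of Il1b overlapped in cluster 4 (8273 and 7266 CPM). Ifitm6 was at 330 and 130 CPM in cluster 1, where its intervals did not overlap. In clusters 2 to 5 it held 10 and 7, 9 and 4, 19 and 9, and 13 and 7 UMIs, with overlapping intervals. Vegfa was at 27.5 and 130 CPM in cluster 1, from 9 and 27 UMIs, at 142 and 218 CPM in cluster 2 with overlapping intervals, and level at 101 and 104 CPM in cluster 3.

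Granule genes were less uniform. The median log2 ratio of the granulocyte identity genes, -0.37 over all cells, was -0.21 in cluster 1 and -0.16 in cluster 3, and that of the secondary granule genes was 0.18 in cluster 3 (3 genes with enough UMIs). Pglyrp1 was at 605 and 294 CPM in cluster 1, but at 54.0 and 39.4 CPM in cluster 2, from 8 and 11 UMIs, and at 148 and 125 CPM in cluster 3, from 22 and 18 UMIs. Lcn2 was at 1244 and 723 CPM in cluster 1 and 2017 and 367 CPM in cluster 3, but at 769 and 841 CPM in cluster 2. Mmp9 was at 529 and 318 CPM in cluster 1 and at 40.5 and 39.4 CPM in cluster 2, the latter from 6 and 11 UMIs. Mmp9 and Pglyrp1 were thus concentrated in cluster 1, and the part of cluster makeup in their ratios over all cells was not tested.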

How the data were processed

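Tumors were digested with enzymes, erythrocytes were lysed and droplet 3' libraries (10x Genomics, v3-generation kit) were sequenced. The authors aligned the reads to mm10 and counted UMIs with Cell Ranger 6.1.1, per the labels, and the deposited values are raw UMI counts per gene and barcode. The study's own list of cells passing its quality control was not used here. The members and gene lists were chosen with earlier results of these data known.

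UMIs of the granulocytes of each library were summed and scaled to CPM with exact Poisson intervals. Log2 ratios have exact conditional intervals and shares Clopper-Pearson intervals, all at 95% and for counting error only. With 1 library per condition no test was made. Comparisons between conditions used genes with at least 50 UMIs in the granulocytes, and those with macrophages and monocytes genes with at least 100 there. Of 585 listed symbols 580 were found. Genes were named when outside the rule and the mitochondrial genome and among the 12 largest ratios each way (at least 100 UMIs), the 15 most abundant, the 15 largest over macrophages and monocytes, the up to 6 most abundant of a list or its members past 2-fold with at least 100 UMIs, and for genes of the rule and other cells as levels. Counts of UMIs from the 3' end do not scale with transcript length.

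Clusters came from 2000 variable genes, 15 components, 15 neighbours and Leiden resolution 0.5 (scanpy 1.11.5, leidenalg 0.10.2), with Python 3.11.15, NumPy 2.4.6, SciPy 1.17.1 and pandas 2.3.3. The steps were tested on simulated data. Other limits of the rule, scalings and minimums were tried. Some genes are not reported here.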

Additional observations from a re-analysis of the deposited data

How the results depend on the processing

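Over the alternatives planned, 301 of 307 list medians stayed inside an interval drawn from the spread of the list's own genes, not from counting error. In the shortest lists that interval was the whole range of the genes, so the count says little about them. Of the ratios of named genes, 1723 of 1949 moved by less than their counting error. A further 219 ratios moved further, some of them across 0, and 7 of those past 2-fold turned direction. The tally includes the scaling without rule and mitochondrial genes and the centring on the median gene. Both shift all genes alike, and 0 of 178 ratios moved under each. With no UMI of the C1q and cancer-cell genes 85 of 174 ratios moved further and 4 turned direction. Ratios of genes given here carry a pseudocount of 0.5 UMIs. The cause of the changes below was not tested. With at least 2000 UMIs a cell, 173 sGC Ctr cells were left. With no UMI of the C1q and cancer-cell genes, 89 and 66 cells were left, the share of genes at least 2-fold lower was 3.55% of 817, the type I interferon median -0.56, and the log2 ratios of Cxcl10 1.49, H2-Ab1 -0.16, Lhfpl4 -0.68, Cst3 -0.76 and Cybb 0.083 (-1.09 over all cells, from 31 and 15 UMIs); the share of genes over macrophages and monocytes was 39.4% of 426. With genes of at least 20 UMIs the shares higher and lower were 3.88% and 2.91% of 5845, and with at least 200 UMIs 0.926% were higher. Cst3 had ratios of -0.77 with at least 20000 CPM of S100a8 and S100a9, -0.35 as a mean of per-cell CPM and -0.26 at 1000 UMIs a cell.

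The following were chosen after seeing the data. In the cells of clusters 1, 2 and 3 alone, 88 of 174, 100 of 168 and 100 of 167 ratios of named genes moved by more than their counting error. Without cluster 5 the share higher was 0.949% and Cst3 -0.75, and without the cell with the most UMIs Cst3 was -0.70. In cluster 1 alone the share higher was 0.933%, the identity median -0.21, the type I interferon median -0.17 and Cst3 -0.56. In cluster 2 alone the tumor neutrophil median was -0.14, type I interferon -0.51, hypoxia -0.22, Lhfpl4 -0.84 and Cst3 -0.41. In cluster 3 alone the share higher was 1.07%, the identity median -0.16, secondary granules 0.18 (3 genes), tumor neutrophil -0.16, type I interferon -0.21, NADPH oxidase -0.12, Crip1 -0.073, Cst3 -0.52 and Hp 0.18. Removal of doublets was not run, since the caller marked 0 barcodes of sGC dPC. No paired analysis was possible because each condition had 1 library. At this depth genes under 50 UMIs were left out of the main medians and shares.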
